A study of Rattus norvegicus with 7 samples.

Results

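The miRNAs of 2 genomic clusters, rno-miR-143 with rno-miR-145, and rno-miR-199a-5p and rno-miR-199a-3p with rno-miR-214, were followed in pancreatic islets of rats of 2 ages. They were found on the arrays by name, with control features and star (passenger) strands left out, and 5 of the 5 names were present among the 677 rat miRNAs measured. The rat prefix is left out hereafter. The rats were male Wistar animals with no treatment named in the labels, euthanised with CO2. Islets of 4 rats aged 12 months (replicates 2, 4, 10 and 16) and of 3 rats aged 3 months (replicates 9, 11 and 13) had been released with collagenase, and total RNA of each rat went onto 1 Agilent miRNA array with a single dye. The comparison asks which of these miRNAs differ in level between the ages and whether the 2 clusters differ by the same amount.

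MiR-143 and miR-145 are made from neighbouring hairpins and are abundant in smooth muscle cells and pericytes, where they are known for keeping the contractile state. MiR-199a and miR-214 are also made from neighbouring hairpins, and they are known from fibroblasts, stellate cells and other mesenchymal cells, where they have been studied in tissue remodelling and fibrosis. An islet preparation holds endocrine cells together with capillaries, pericytes, fibroblasts and some acinar tissue, so that all of these cells give RNA to 1 array.

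The mature sequences show that the 5 miRNAs have different seeds and so are separate regulators although they share loci. They were taken from RefSeq (GRCr8 assembly), which held all 5 of the 5. They are written 5′ to 3′ in lower case with the seed, bases 2 to 8, in capitals.
miR-143 (the 3p arm): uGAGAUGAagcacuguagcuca
miR-145 (the 5p arm): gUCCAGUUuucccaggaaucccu
miR-199a-5p: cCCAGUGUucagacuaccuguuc
miR-199a-3p: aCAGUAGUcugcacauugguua
miR-214 (the 3p arm): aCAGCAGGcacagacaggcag
The 5 seeds are 5 different sequences, and 0 of the 5 is shared with another of the 724 mature rat miRNAs of that table. Only that table was searched, so any miRNAs of the array that it does not hold were not compared. In GRCr8, miR-143 lies at chr18:57371373-57371394 and miR-145 at chr18:57370033-57370055, both on the minus strand. Their hairpins are 1278 bases apart inside the span of the long non-coding RNA gene Carmn, which is on the same strand. MiR-199a-5p lies at chr13:77116255-77116277, miR-199a-3p at chr13:77116294-77116315 and miR-214 at chr13:77121713-77121733, all on the plus strand. MiR-199a-5p and miR-199a-3p are the 2 arms of 1 hairpin, which is 5310 bases from that of miR-214, and both hairpins lie inside the span of Dnm3, a dynamin gene on the opposite strand. The array design names an older rat assembly, so these positions belong to the sequences and were not read from the array files.

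Each miRNA was read by 2 probes of 10 spots each, and the scanner software summed the probes to a background-subtracted total gene signal. No spot was saturated, and the software called 278 to 296 miRNAs detected per array at 12 months and 246 to 272 at 3 months. The arrays of the older rats were brighter, with a 75th percentile of the total gene signal of 67.0 to 73.8 units against 37.4 to 55.4 units. Signals below 1 were set to 1 and log2 values were quantile normalised over all 677. The limma test took each miRNA that all arrays of 1 age or the other had detected, which left 272, and a two-sided exact permutation test over the 35 splits of the 7 rats was run for single miRNAs, and its smallest p is 0.0286. Over these 272 miRNAs, the median log2 difference between the ages was 0.79 before normalisation and 0.06 after it. The islet miRNAs miR-375 and miR-7a were detected on 7 of 7 arrays and miR-184 on 0 of 7.

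Levels of all 5 miRNAs were higher on average at 12 months. The 3 miRNAs of the miR-199a/miR-214 cluster were 2.24 to 2.63 times higher and their ages did not overlap, whereas miR-145 was 1.82 times and miR-143 1.30 times higher with overlapping ages. In the limma fit, 0 of the 5 reached an adjusted p below 0.05, where 1.47% of the 272 tested miRNAs did. An unadjusted p below 0.05 with a higher level at 12 months was found for the 3 miRNAs of the miR-199a/miR-214 cluster, against 9.19% of those tested. MiR-145 also had one, but it passed the filter only through its detection at 12 months. Of the 3 younger rats, 2 had it detected. Ages that did not overlap, with the higher level at 12 months, were found for 3 of the 5, against 7.72% of those tested. The median log2 difference of the 5 miRNAs was 1.16, and by size of increase they ranked between 5 and 44 of the 272. The RNA came from whole islets, so more cells of a type cannot be told apart from more of a miRNA in each cell.

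**Figure D1:**
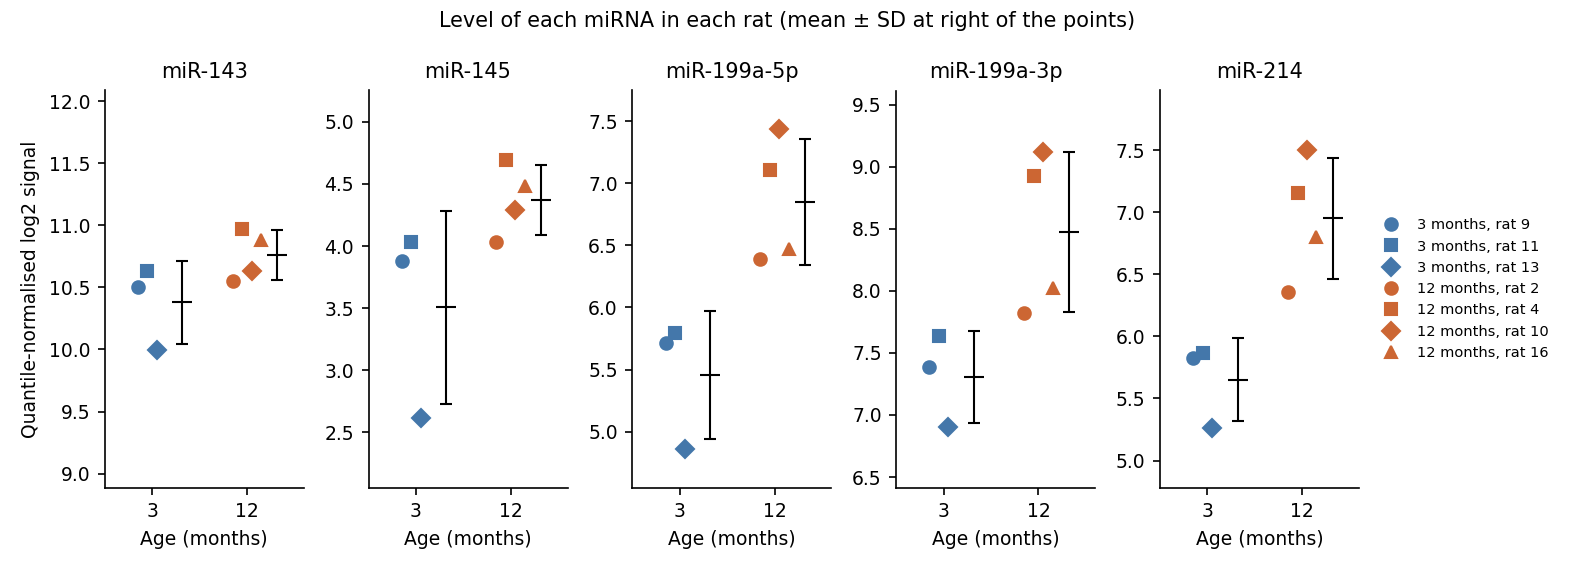
Quantile-normalised log2 signal (vertical axis, a span of equal size in each panel) of each miRNA in each rat at 3 and 12 months of age, with the mean ± SD of each age beside the points. In miR-199a-5p, miR-199a-3p and miR-214 every 12-month-old rat lies above every 3-month-old rat, in miR-143 and miR-145 the ages meet, and replicate 13 is the lowest 3-month-old rat in each panel.

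MiR-199a-5p is the 5′ arm of the miR-199a hairpin. Its total gene signal, before normalisation, was 102, 185, 184 and 112 units in 12-month-old replicates 2, 4, 10 and 16. In 3-month-old replicates 9, 11 and 13 it was 42.0, 50.8 and 19.5 units. Replicates 4 and 10 were the high rats of the older group and replicate 13 the low one of the younger group, and the ages did not overlap. After normalisation the log2 level was 6.85 ± 0.50 (SD, n = 4) at 12 months and 5.46 ± 0.52 (n = 3) at 3 months. The log2 difference was 1.39 (SE 0.33, 95% interval 0.63 to 2.16), with a limma p of 0.00289 and an adjusted p of 0.0608. In the exact permutation test p was 0.0286.

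MiR-199a-3p comes from the other arm of the same hairpin. Its signals were 299, 604, 612 and 339 units in 12-month-old replicates 2, 4, 10 and 16, and 119, 177 and 72.2 units in 3-month-old replicates 9, 11 and 13. The order of the rats was that of the 5′ arm, except that replicates 4 and 10, the brightest pair, changed places. The normalised log2 level was 8.47 ± 0.65 (n = 4) against 7.31 ± 0.37 (n = 3), a difference of 1.16 (SE 0.35, 95% interval 0.35 to 1.98). The adjusted p in limma was 0.0817 and the exact permutation p 0.0571. The lowest older rat, replicate 2 at 7.82, lay just above the highest younger rat, replicate 11 at 7.64.

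MiR-214 is known in fibrosis and muscle biology and is made from the second hairpin of the cluster. Signals were 101, 199, 190 and 127 units at 12 months in the same order of replicates, and 43.5, 55.4 and 23.8 units at 3 months. Replicates 4 and 10 were again the high rats of their age. Normalised log2 levels were 6.95 ± 0.49 (n = 4) and 5.65 ± 0.34 (n = 3). The log2 difference of 1.30 (SE 0.29, 95% interval 0.63 to 1.96) had an unadjusted p of 0.0020 and an adjusted p of 0.0608 in limma, with an exact permutation p of 0.0571. Without replicate 2 of the 12-month-old rats the difference was 1.49 and its adjusted p in limma 0.0310.

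MiR-143 had signals of 2107, 2626, 1818 and 2559 units in 12-month-old replicates 2, 4, 10 and 16. In 3-month-old replicates 9, 11 and 13 it had 1028, 1414 and 617 units. The ages were apart on this scale but met after normalisation, where replicate 10 of the older and replicate 11 of the younger rats both stood at 10.63. Before normalisation, replicate 10, among the brightest older rats in the miR-199a/miR-214 cluster, was the dimmest older rat for miR-143. The normalised log2 level was 10.76 ± 0.20 (n = 4) against 10.38 ± 0.34 (n = 3). The difference of 0.38 (SE 0.20, 95% interval −0.08 to 0.84) had an adjusted p of 0.324 in limma and an exact permutation p of 0.143. Without 3-month-old replicate 13 it was 0.19.

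MiR-145, the partner of miR-143, was dim on this array. Its signals were 20.4, 32.2, 21.1 and 27.9 units at 12 months and 12.0, 14.1 and 4.28 units at 3 months, and the software did not call the last of these, in replicate 13, detected. The normalised log2 level was 4.37 ± 0.28 (n = 4) against 3.51 ± 0.78 (n = 3), and replicate 2 of the older and replicate 11 of the younger rats shared the value 4.03. The difference of 0.86 (SE 0.35, 95% interval 0.07 to 1.66) had an unadjusted p of 0.0368 and an adjusted p of 0.191 in limma, with an exact permutation p of 0.0571. These values rest on a 3-month level near background, and an unadjusted p below 0.05 was found in 10 of the 22 alternatives with a test. The difference was 0.41 without replicate 13, 0.24 with the normexp background correction, 0.51 in the authors' matrix and 0.55 with array weights. The software's error of the total gene signal was 79.6% of the signal in replicate 13 against 12.1 to 26.4% in the others.

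The spots showed how near to background each miRNA was. All 20 spots of miR-143 and all 20 of miR-199a-3p were well above background on each of the 7 arrays. For miR-214 this held on 6 arrays, and on that of 3-month-old replicate 13 it held for 10 of 20 spots. For miR-199a-5p between 10 and 19 of the 20 spots were well above background in the older rats and 10 in each younger rat, because only its brighter probe passed there. For miR-145, 9 to 17 spots passed in the older rats, and 1, 6 and 0 spots in 3-month-old replicates 9, 11 and 13.

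Both probes of a miRNA were then set side by side on the scale before normalisation. The probes of miR-143 gave log2 differences of 1.22 and 1.25 between the ages. Those of miR-199a-3p gave 1.93 and 1.94, and those of miR-214 gave 1.90 and 2.01. The value of 2.01 is that of the dimmer miR-214 probe, which had 0 of 10 spots well above background in 3-month-old replicate 13. The brighter probe of miR-199a-5p gave 1.98. That of miR-145 is given no difference, since 1, 6 and 0 of its 10 spots were well above background in the 3-month-old rats. The dimmer probes of miR-199a-5p and miR-145 were not well above background on any 3-month-old array, so no difference is given for them. The brighter probe of miR-143 held 81.2% of its total gene signal at 12 months and 81.5% at 3 months, and that of miR-199a-3p held 66.3% and 66.1%.

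The 2 clusters were compared as the mean log2 level of their members in each rat. The mean of miR-143 and miR-145 was 7.57 ± 0.24 (SD, n = 4) at 12 months and 6.94 ± 0.56 (n = 3) at 3 months, a difference of 0.62 with overlapping ages. This mean includes miR-145, which was near background at 3 months and not called detected in replicate 13. MiR-143 alone differed by 0.38. The mean of miR-199a-5p, miR-199a-3p and miR-214 was 7.42 ± 0.54 and 6.14 ± 0.41, a difference of 1.28, and the ages did not overlap. Probes bind their targets with unequal strength, so that only the change of such a mean with age can be read, not its height above that of the other cluster.

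Within a rat, the mean of the miR-199a/miR-214 cluster minus that of the miR-143/miR-145 cluster was −0.44, −0.10, 0.56 and −0.59 in 12-month-old replicates 2, 4, 10 and 16. In 3-month-old replicates 9, 11 and 13 it was −0.88, −0.90 and −0.63. The older rats lay above the younger ones, but the lowest older rat, replicate 16, was only just above the highest younger one, replicate 13, and replicate 10 stood highest. The value of replicate 13 includes miR-145, which was not called detected in that rat. The means were −0.14 ± 0.51 (n = 4) and −0.80 ± 0.15 (n = 3), so that the value was higher by 0.66 at 12 months on the log2 scale. Without replicate 10 this value was 0.44, and before normalisation it was 0.62. It is a score over chosen miRNAs and was given no p value.

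**Figure D2:**
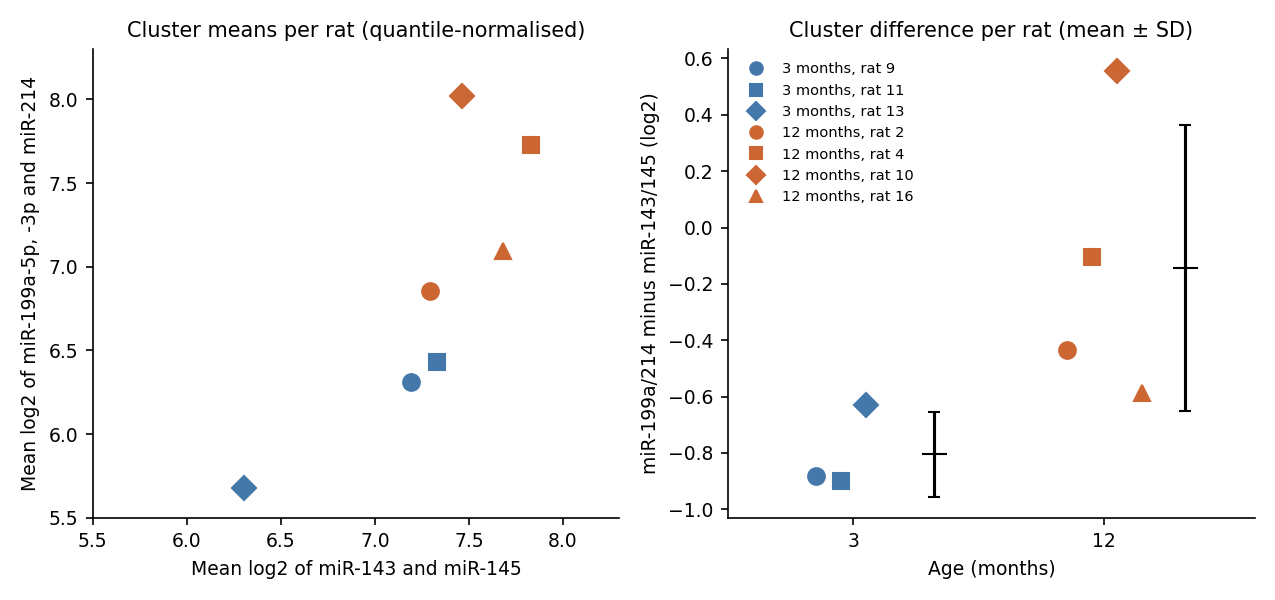
Left, the mean quantile-normalised log2 level of miR-199a-5p, miR-199a-3p and miR-214 (vertical axis) against that of miR-143 and miR-145 (horizontal axis), 1 point per rat. Right, the difference of the cluster means in each rat by age, with mean ± SD; the 12-month-old rats spread from −0.59 to 0.56 and the 3-month-old rats from −0.90 to −0.63.

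Differences of 2 miRNAs on the same array do not change when the whole array is brighter, so the 10 pairs of members were tested on the values before normalisation. None of the 10 differences had an exact permutation p below 0.05, and the lowest p adjusted over the 10 pairs was 0.286. All 6 pairs between the clusters moved towards the miR-199a/miR-214 member at 12 months, by 0.46 to 0.80. These pairs share miRNAs and rats and are not 6 separate observations.

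The ages did not overlap in the 3 pairs with miR-143. MiR-199a-5p minus miR-143 was −4.37, −3.83, −3.31 and −4.51 in 12-month-old replicates 2, 4, 10 and 16, and −4.61, −4.80 and −4.98 in 3-month-old replicates 9, 11 and 13. Each older rat was thus above each younger rat, with replicates 4 and 10 far above and replicates 2 and 16 near the younger rats. The difference between the ages was 0.80 (exact permutation p = 0.0857, SD 0.55 at 12 months and 0.18 at 3 months). MiR-214 minus miR-143 differed by 0.72 (exact permutation p = 0.0857) and miR-199a-3p minus miR-143 by 0.71 (exact permutation p = 0.114). Without replicate 10 these 3 differences were 0.56, 0.50 and 0.45.

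Against miR-145, which was near background at 3 months, the miR-199a/miR-214 members differed less and the ages overlapped. The differences were 0.54 for miR-199a-5p (exact permutation p = 0.114), 0.46 for miR-199a-3p (exact permutation p = 0.286) and 0.47 for miR-214 (exact permutation p = 0.2). Without 12-month-old replicate 10 they were 0.33, 0.22 and 0.27. MiR-145 minus miR-143 differed by 0.25 between the ages (exact permutation p = 0.314), with an SD of 0.38 at 3 months and 0.15 at 12 months. This difference was 0.04 without 3-month-old replicate 13 and 0.41 without replicate 9. On quantile-normalised values that difference was 0.48 and that of miR-214 minus miR-143 was 0.92, each with an exact permutation p of 0.0286.

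The 3 miRNAs of the miR-199a/miR-214 cluster kept nearly fixed proportions within a rat. The log2 difference of miR-199a-3p minus miR-199a-5p was 1.65 ± 0.09 (n = 4) at 12 months and 1.73 ± 0.21 (n = 3) at 3 months. MiR-214 minus miR-199a-5p was 0.08 ± 0.08 and 0.15 ± 0.12, and miR-214 minus miR-199a-3p was −1.57 ± 0.11 and −1.58 ± 0.12. The changes of these 3 differences with age were −0.08, −0.08 and 0.01, with exact permutation p values of 0.514, 0.314 and 0.914. The level of each of these miRNAs itself varied with an SD of 0.34 to 0.65.

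**Figure D3:**
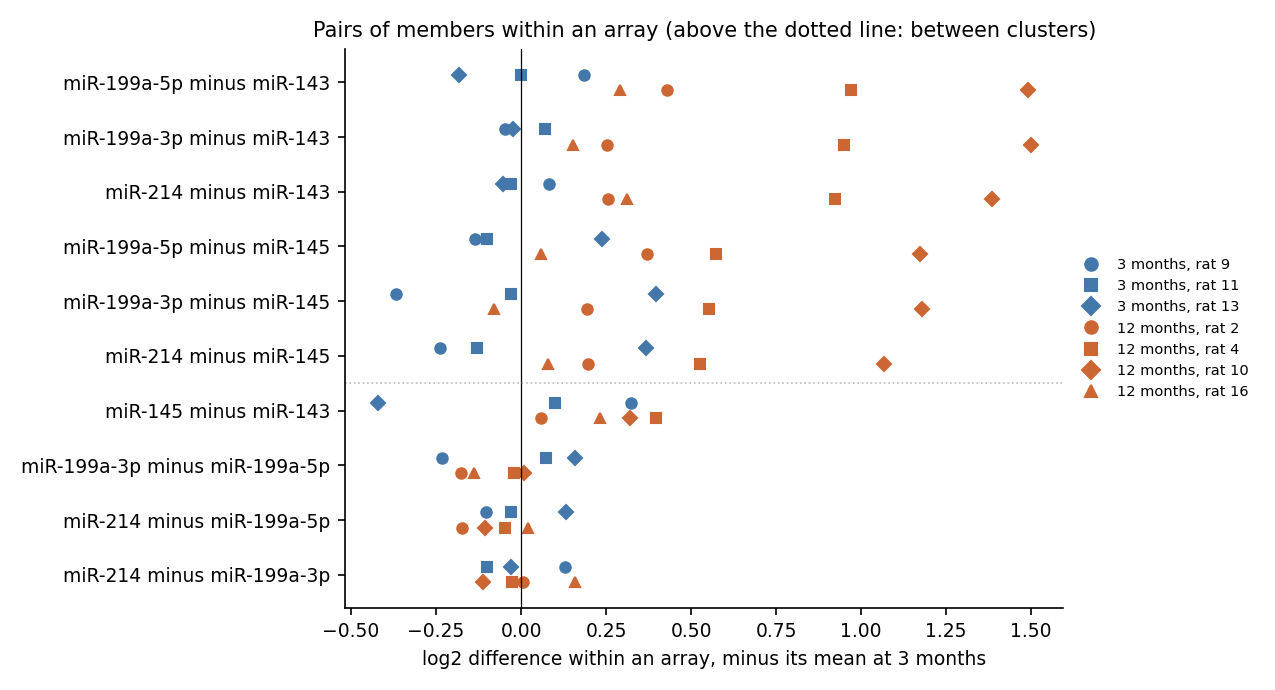
Log2 difference of 2 miRNAs within an array, before normalisation, minus its mean over the 3-month-old rats (horizontal axis), for the 10 pairs of members, 1 point per rat. Above the dotted line, in the 6 pairs between the clusters, 12-month-old replicates 4 and 10 lie farthest to the right; below it, the 3 pairs within the miR-199a/miR-214 cluster stay close to 0 at both ages.

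The size of each increase depended on how the brightness of the arrays was treated. Before normalisation all 5 miRNAs separated the ages, with log2 differences of 1.22 for miR-143, 1.48 for miR-145, 2.02 for miR-199a-5p, 1.94 for miR-199a-3p and 1.94 for miR-214, against the median of 0.79 over all tested miRNAs. The exact permutation p was then 0.0286 for each. In this setting the brightness of the arrays was left in. Of the 272 tested miRNAs, 193 then had an unadjusted p below 0.05 in limma, 189 of them higher in the older rats. Scaled to the 75th percentile of all rat miRNAs, the 3 miRNAs of the miR-199a/miR-214 cluster had log2 differences of 1.39, 1.30 and 1.31 with adjusted p values in limma of 0.0202, 0.0283 and 0.0206. Scaled to the 75th percentile of the miRNAs detected on all arrays, their differences were 1.30, 1.21 and 1.22. Their adjusted p values in limma were then 0.0652, 0.0883 and 0.0652. Scaled to miR-7a, a member of the miR-7 family that the study's methods name as a qPCR reference, the ages overlapped for all 5 miRNAs. The log2 differences were then 0.35 for miR-143, 0.61 for miR-145, 1.15 for miR-199a-5p, 1.07 for miR-199a-3p and 1.07 for miR-214. Under that scaling 1 of the 5, miR-199a-5p, had an unadjusted p below 0.05 in limma.

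**Figure D4:**
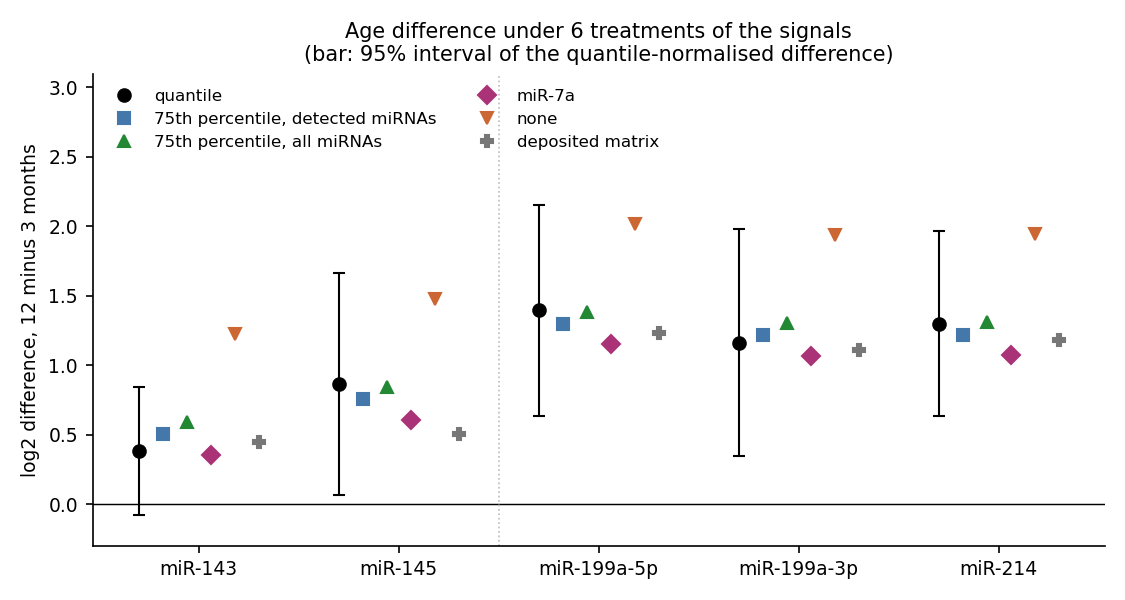
Log2 difference between 12 and 3 months (vertical axis) of each miRNA under 6 treatments of the signals, with the 95% interval of the quantile-normalised difference as a bar. All points are above 0, those without normalisation are the highest of each miRNA, and the dotted line parts the 2 clusters.

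The slide held 2 rows of arrays, and each row held both ages. In the row with 12-month-old replicates 2 and 4 and 3-month-old replicate 9, the log2 differences were 0.26 for miR-143, 0.48 for miR-145, 1.03 for miR-199a-5p, 0.98 for miR-199a-3p and 0.93 for miR-214. In the row with 12-month-old replicates 10 and 16 and 3-month-old replicates 11 and 13 they were 0.44, 1.06, 1.63, 1.30 and 1.58 in the same order. The cluster difference was 0.61 in the first row and 0.75 in the second. With the row as a term of the limma fit, miR-145 had an unadjusted p of 0.0576, and the 3 miRNAs of the other cluster remained below 0.05. Of the 272 tested miRNAs, 58 had an unadjusted p below 0.05 in that fit, 24 of them higher at 12 months. Adjusted p values in that fit were 0.0863 for miR-199a-5p, 0.136 for miR-199a-3p and 0.0863 for miR-214.

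The passenger strands of the hairpins were not seen. MiR-143*, miR-145* and miR-214* were detected on 0 of 7 arrays each, and their background-subtracted signals lay below 0 on every array. MiR-3120, whose hairpin overlaps that of miR-214 on the opposite strand and which was singled out after its values were seen, was also detected on 0 of 7 arrays.

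Lists of miRNAs known from other cells of an islet preparation were read beside these values. Of 9 further miRNAs that stromal cells are known to hold in amount, 0 had an unadjusted p below 0.05 in limma. Of all tested miRNAs, 9.19% had one with a higher and 12.5% with a lower level at 12 months. A higher mean level at 12 months was found for 7 of the 9, against 57.7% of all tested miRNAs. Their median log2 difference was 0.32, against 0.06 over all tested. This list had 10 names, of which miR-218 was not on the array under that name and is not among the 9. The array's miR-218a, singled out after its values were seen, was higher at 12 months by 0.82. Its ages did not overlap, with an unadjusted p of 0.0041 and an adjusted p of 0.0608 in limma. Of the 5 listed for striated muscle, miR-1, miR-206 and miR-208 were detected on 0 of 7 arrays. MiR-133a was detected on 3 and miR-133b on 6 of the 7 arrays. MiR-133b, the only 1 tested, was higher on average at 12 months with overlapping ages. Of the 3 tested from the endothelial list, miR-221 was higher at 12 months with ages that did not overlap. The same held for 7.72% of all tested miRNAs. MiR-221 differed by 0.40 on the log2 scale, with an adjusted p in limma of 0.190. MiR-126* passed the filter only through the older rats, since 2 of the 3 younger rats had it detected, so no difference is given for it. The other strand of its hairpin, miR-126, singled out after its values were seen, was detected on 7 of 7 arrays and differed by 0.07. The summed normalised signal of this list was 1672 to 2217 units at 12 months and 1735 to 1872 units at 3 months.

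Of the 4 leukocyte miRNAs tested, miR-142-3p was higher at 12 months with ages that did not overlap, as were 7.72% of all tested miRNAs. It differed by 0.91 (adjusted p = 0.118 in limma). MiR-142-5p, from the other arm of the same hairpin of blood cells, was called detected in 4 of 4 older and 0 of 3 younger rats. It passed the filter only through the older rats, so no difference is given for it. The other 2 had unadjusted p values above 0.05 and overlapping ages. The summed normalised signal of the leukocyte list was 261 to 488 units at 12 months and 225 to 253 units at 3 months. The part of leukocyte or endothelial RNA in the higher levels of the 5 mesenchymal miRNAs was not tested.

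The acinar miRNAs went the other way. MiR-217, miR-216b-5p and miR-216a all had an unadjusted p below 0.05 in limma with lower levels at 12 months, 3 of the 3 tested, against 12.5% of all tested miRNAs. Their median log2 difference was −2.11, their ages overlapped and their adjusted p values in limma were 0.163 to 0.170, with exact permutation p values of 0.0857 to 0.143. Their summed normalised signal was 123, 629, 1376 and 231 units in 12-month-old replicates 2, 4, 10 and 16. In 3-month-old replicates 9, 11 and 13 it was 1211, 1308 and 2853 units. Replicates 4 and 10, the high rats of the miR-199a/miR-214 cluster among the older ones, were also the high ones for this list, and replicate 13, low in every mesenchymal miRNA, was the highest of all. None of the 3 islet endocrine miRNAs tested had an unadjusted p below 0.05, and their summed signal was 34801 to 41857 units at 12 months and 41146 to 45628 units at 3 months. The lowest of these sums was that of replicate 10. The part of acinar or endocrine RNA in the results was not tested.

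**Figure D5:**
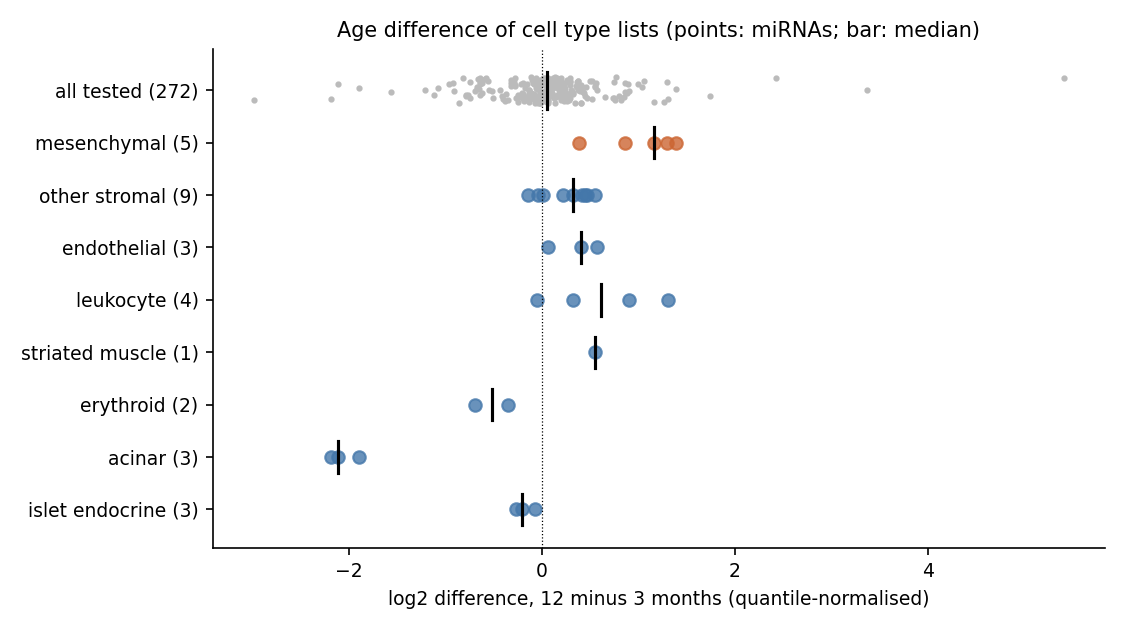
Log2 difference between 12 and 3 months (horizontal axis, quantile-normalised) of every tested miRNA and of the tested miRNAs of each cell type list, with the number tested in brackets and the median as a bar. The mesenchymal miRNAs lie between 0.38 and 1.39 and the acinar ones near −2, while the median of all 272 is 0.06.

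The 267 other tested miRNAs were also ordered by how closely their centred log2 profile over the 7 rats followed the mean profile of each cluster, as the root mean square difference. Closest to miR-143/miR-145 were miR-126* (0.22), miR-129-2* (0.23), miR-150 (0.24), miR-497 (0.25) and miR-195 (0.25), where the median over the 267 was 0.52. MiR-126* passed the filter only through the older rats, since it was detected in 2 of the 3 younger rats. Closest to miR-199a/miR-214 were miR-142-5p (0.36), miR-129-1* (0.40), miR-195 (0.40), miR-142-3p (0.41) and miR-497 (0.43), against a median of 0.81. The first of these, miR-142-5p, was detected on none of the 3-month-old arrays, so its profile there is background signal. MiR-497 and miR-195, which belong to the miR-15 family, were thus on both short lists. The members of the miR-199a/miR-214 cluster were 0.15 to 0.19 from each other, miR-143 was 0.34 from miR-145, and distances between members of different clusters were 0.42 to 0.62. All profiles share the same 7 rats, so this order is a description.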

How the data were processed

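The authors isolated islet RNA with the miRNeasy kit, labelled it with Cy3 and scanned Agilent miRNA arrays. Per the labels, spot intensities were extracted with Agilent Feature Extraction (version 10.7.3.1), and the authors deposited that output as background-subtracted intensity on a linear scale. A second table, of log2 values that the authors deposited for the same arrays and, per the study's notes, quantile normalised, served as an alternative.

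Total gene signals of the 677 rat miRNAs were floored at 1, log2 transformed and quantile normalised in R 4.3.3 with limma 3.58.1. Ages were compared with lmFit and eBayes and Benjamini-Hochberg adjustment over 272 miRNAs, those called detected throughout 1 age or both. Exact permutation tests were two-sided over 35 splits. Columns without a sample numbered 0. Precision is limited by the number of arrays. The steps were tested on simulated data.

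The 5 miRNAs, the lists of cell type miRNAs and the tests were chosen with earlier results of these data known. Named miRNAs are the 5, their passenger strands, list members (with values only where their ages do not overlap), the 5 closest profiles per cluster, and miR-7a. The labels' ages gave the groups, and the position on the slide was read from the names of the deposited files. The 2 ages share no replicate numbers. Alternatives covered normalisation, floor, filter, background correction (normexp, offset 16), probe summary, variance model, array weights, slide row, the authors' table and the omission of each rat in turn. In the scaling to miR-7a that miRNA itself was left out of the fit, because it has no variance there, and a fit that keeps it was added after seeing the data.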

Additional observations from a re-analysis of the deposited data

How the results depend on the processing

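Levels of all 5 miRNAs were higher at 12 months in every alternative run, 25 each for miR-143, miR-199a-5p, miR-199a-3p and miR-214 and 24 for miR-145, which the filter on detection on all arrays left out. The lowest log2 differences over all alternatives were 0.19 for miR-143, 0.24 for miR-145 (normexp background correction), 0.91 for miR-199a-5p, 0.64 for miR-199a-3p and 0.93 for miR-214.

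With quantile normalisation 4 of the 272 tested miRNAs and 0 of the 5 members had an adjusted p below 0.05 in limma. An unadjusted p below 0.05 was found for 59 tested miRNAs and 4 members. One of these members, miR-145, passed the filter only through the older rats. Without normalisation between arrays the adjusted count was 171 and the unadjusted count 193, the members' log2 differences were 1.22, 1.48, 2.02, 1.94 and 1.94 in the order given above, with 5 of 5 below an adjusted p of 0.05 and 5 not overlapping. Of the 193, 189 were higher at 12 months, since the brightness of the arrays was left in. With the 75th percentile of all rat miRNAs, 10 miRNAs and 3 members passed the adjusted threshold (miR-199a-5p at 1.39, miR-199a-3p at 1.30, miR-214 at 1.31) and 5 members did not overlap. With the 75th percentile of the miRNAs detected on all arrays 21 miRNAs and 0 members passed. Scaling to miR-7a gave 15 adjusted calls, 1 member with an unadjusted p below 0.05 and 0 members not overlapping. With miR-7a kept in that fit there were 15 adjusted and 36 unadjusted calls, and 0 members with an unadjusted p below 0.05 and 0 not overlapping. The unadjusted calls were 25 higher and 34 lower with quantile normalisation, 18 and 35 with the 75th percentile of detected miRNAs, and 10 and 30 with miR-7a.

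With array weights 48 adjusted and 89 unadjusted calls were made, 2 of them members by the adjusted p, miR-199a-5p at 0.91 and miR-214 at 0.95. The filter on detection on all arrays left 1 adjusted call and the authors' matrix 8. On that matrix 69 miRNAs had an unadjusted p below 0.05 in limma, 33 of them higher and 36 lower at 12 months. Among the 69 were 5 of 5 members, miR-143 included, and 4 members did not overlap. With single rats left out, adjusted calls ranged from 4 to 10 (10 without 12-month-old replicate 10), members among them from 0 to 1 (miR-214, without replicate 2), members not overlapping from 3 to 5 (5 without 3-month-old replicate 11) and the difference of miR-214 from 1.11 to 1.49. The cause of these changes was not tested. A share of all tested miRNAs with ages that did not overlap is given only for quantile normalisation of all 7 rats. There it was 7.72% with the higher level at 12 months. The counts of members not overlapping in the other settings therefore have no such share beside them. MiR-145 lay near background at 3 months, so that its value rests on few spots. Groups of 4 and 3 rats cannot reach an exact permutation p under 0.0286.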
